A study of Mus musculus with 13 samples.

Results

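The livers of mice fed the diet labelled HFHS and given vehicle were compared directly with the livers of mice fed the standard diet (ST) and given a pollutant mixture. All 5 HFHS arrays and all 5 pollutants arrays of the series were used, 10 of its 13 arrays, chosen by their titles and paired by slide, since each of the 5 slides carried 1 array of each group. The 3 remaining arrays (ST vehicle), from standard-diet mice that got vehicle alone, lie on slides 1, 2 and 5 and are given as values beside the others, outside the fit. Every sample was liver total RNA from a female C57BL6 mouse aged 12 weeks, labelled with the dye Cy3 from 0.1 ug of RNA and numbered as a biological replicate. HFHS is written out in the labels only as a high fat diet, and its composition, the feeding time and the names and doses of the 4 pollutants are not stated in the labels. The design text can also be read as placing the mixture in the high fat diet, whereas each pollutants sample carries the standard diet in its label, and the labels were followed. The groups differed in diet and in mixture at once. The direct difference does not by itself say which group departed from the standard diet. ST vehicle values are given beside it for many of the genes and lists. The title of the series sets the mixture beside the diet and asks what they share and where they differ, and the comparison made here addresses the second question.

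The liver makes and exports cholesterol, stores triglyceride, releases glucose in fasting and clears foreign chemicals. Sterol synthesis is driven by SREBP2, which is held back when cholesterol is plentiful, while insulin lowers the genes of glucose release and raises those of glucose use. Foreign chemicals act on the receptors AhR, CAR and PXR, which induce cytochrome P450 enzymes, and many liver genes also follow the circadian clock and glucocorticoids.

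An array had 62.8% to 69.5% of its probes well above background and a 75th percentile of 782 to 1354 intensity units. Levels below are log2 signals relative to that percentile, which is 0. Correlations across genes were 0.978 to 0.992 within the groups and 0.974 to 0.992 between them. The mean of 10 hepatocyte markers was high on every array, as the label of the tissue has it, between 7.96 and 8.47, and all 10 had negative differences, HFHS minus pollutants (median -0.12, 0 called). Transcripts of the exocrine pancreas set 3 HFHS arrays apart, those of slides 3, 4 and 5, where the mean of 16 acinar markers was 4.48, 3.16 and 6.59, against -2.83 to -2.20 on the other HFHS arrays and -3.16 to -1.81 on the pollutants arrays. The mean of 8 skeletal muscle markers was -2.86, -4.25, -0.01, -3.96 and -3.87 on the HFHS arrays of slides 1 to 5 and 0.19, 0.25, -2.37, 0.11 and -1.99 on the pollutants arrays. None of these acinar or muscle markers was called. With the acinar mean as a covariate, or without those 3 HFHS arrays and without the block, limma called 0 genes, with 2901 and 2991 at an unadjusted p under 0.05. The part of the muscle transcripts in the results below was not tested. In whole liver, fewer cells of a type and less RNA per cell cannot be told apart.

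The direct comparison called 243 of 19057 genes (1.28%) at an adjusted p under 0.05, 70 higher in HFHS (0.367%) and 173 lower (0.908%). Among the genes lower in HFHS were Mfsd2a, Lpin1, Pnpla2 and Slc22a5, which act on lipids and carnitine, the clock gene Per1, the kinase Sik1 and the sterol hydroxylase Cyp39a1. Among the genes higher in HFHS were the secreted protein A1bg, Sema5b, the ghrelin receptor antagonist Leap2 and the thiolase Acat2. All 243 had the same sign in all 5 slide pairs, which 8.93% of all genes had in the higher and 12.5% in the lower direction, and in 216 of them the groups did not overlap (2.80% of all genes lay wholly above and 4.28% wholly below). The smallest difference called was 0.38 and the largest were 2.79 higher and -2.13 lower.

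The calls lay close to the threshold. All adjusted p-values called fell between 0.0472 and 0.0495, so that a large group of genes shared nearly the same value, and 394 genes were under 0.06 and 1149 under 0.1. An unadjusted p under 0.05 was seen for 3862 genes (20.3%). Leaving out the 2 arrays of any 1 slide left 0 genes called by limma, with 3092 to 3317 at an unadjusted p under 0.05. Without the slide as a block, 219 genes were higher and 334 lower, and with the ST vehicle arrays added and no block, 314 were higher and 475 lower.

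**Figure D1:**
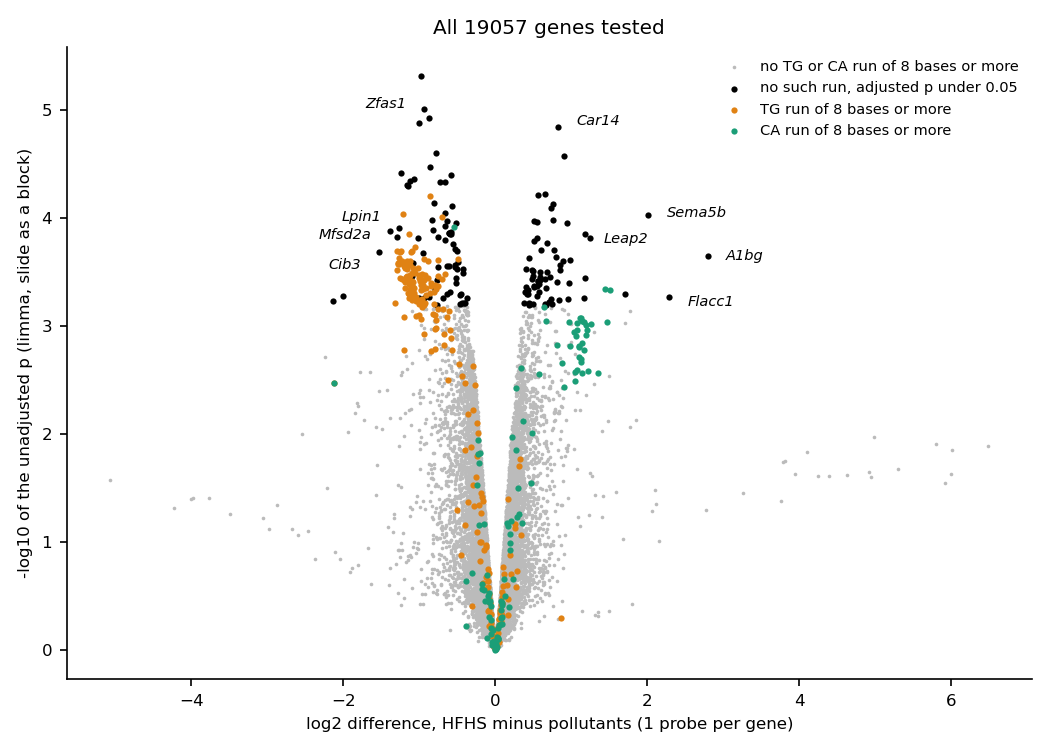
Each point is 1 of the 19057 genes; the horizontal axis is the log2 difference, HFHS minus pollutants, and the vertical axis is -log10 of the unadjusted p of the fit with slide as a block. Orange points are genes whose probe holds an alternating TG run of 8 bases or more, green points a CA run, and black points the 138 called genes without such a run; orange points gather near -1 and green points near 1.

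A feature of the probes separated many of the called genes from the rest. Agilent probes on this array are 60-base oligonucleotides, and 102 of the 173 genes called lower (59.0%) were read by a probe with an alternating TG run of 8 bases or more, against 1.18% of all genes tested. Of the 10 named genes with the largest negative differences, 6 were of this kind. Parts of their probes are shown here, 5′ to 3′ as printed in the files, with the run in capitals, because the run is what these otherwise unrelated genes share.
Sema6d: agaggggcgaGTGTGTGTGTGTGTGTGTGT
Arhgef15: gctgaatgtgGTGTGTGTGTGTGTGTGTGT
Igsf9: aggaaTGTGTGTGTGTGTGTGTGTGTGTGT
Tnfrsf9: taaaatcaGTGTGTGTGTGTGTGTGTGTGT
Golga7b: tatgcatgtgttTGTGTGTGTGTGTGggga
Blcap: aatgtgtgtTGTGTGTGTGTttacatacca
The probes lie, on mouse build mm9, at chr2:124491609-124491668, chr11:68757516-68757575, chr1:174428818-174428877, chr4:150319582-150319641, chr19:42343901-42343960 and chr2:157382641-157382700.

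The genes with a TG run moved as a block. Among the 106 genes with a run of 12 bases or more, 105 had a negative difference, the median was -1.07, and 88 were called lower and 0 higher (83.0% called). Runs of 10 or 11 bases had a median of -0.46 in 41 genes with 12 called, runs of 8 or 9 bases -0.07 in 78 genes with 2 called, and runs of 6 or 7 bases -0.01 in 727 genes. The 44 genes with a CA run of 12 bases or more differed the other way, with a median of 1.08, 42 positive differences and 2 called higher. The 18726 genes with neither run of 8 bases or more had a median that rounds to 0. Runs of GA, CT and AT of 12 bases or more had medians of -0.15, 0.03 and 0.19 in 23, 15 and 7 genes, with 0 called. Of these genes, 22 with a GA run were negative, and 11 with a CT run and 6 with an AT run were positive.

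The 2 genes with a CA run that were called higher were Pign, an enzyme of membrane anchor synthesis, and the unnamed transcript E330020D12Rik, and these stretches show the opposite repeat.
Pign: gctgtgACACACACACACACACAttgcact
E330020D12Rik: ttatgtACACACACACACACACAtgttcca
They lie at chr1:107418310-107418369 and chr1:155251957-155252016 (mm9). The Pign probe read -1.27, -1.30, -1.72, -2.02 and -1.34 on the HFHS arrays of slides 1 to 5 and -3.30, -3.08, -2.33, -3.04 and -3.13 on the pollutants arrays, without overlap. The difference was 1.45 ± 0.22 (SE; adjusted p = 0.0472). A second Pign probe without a run, at chr1:107454091-107454588, gave -0.22, the opposite sign.

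The shift was seen on single arrays. Relative to each gene's mean over the 13 arrays, the median of the 106 genes with a long TG run was -0.79, -0.73, -0.68, -0.09 and -0.38 on the HFHS arrays of slides 1 to 5 and 0.76, 0.61, 0.08, 0.43 and 0.71 on the pollutants arrays. The ST vehicle arrays were at 0.01, 0.19 and -0.13. The 44 genes with a long CA run were at 0.74, 0.65, 0.31, 0.16 and 0.73 on the HFHS arrays and -0.94, -0.64, -0.02, -0.42 and -0.62 on the pollutants arrays. The HFHS and pollutants arrays did not overlap in either set, while the median of the genes without a run stayed between -0.05 and 0.04 on all 13 arrays.

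Where a gene also had a probe without a run, that probe did not share the shift. In 33 genes with both kinds of probe, the probe with the TG run had a median difference of -0.97 and the other probes 0.02, with 32 and 15 negative differences. In 17 genes the probe with the CA run had a median of 1.1 and the others 0.00. Igsf9, an adhesion protein, read 4.15, 4.11, 4.16, 4.88 and 4.49 on the HFHS arrays and 5.98, 5.75, 5.06, 5.58 and 5.79 on the pollutants arrays with its run probe (-1.27 ± 0.18), and 0.17 with another probe a short distance away. Sema6d, a semaphorin, gave -1.29 ± 0.17 with its run probe and a difference that rounds to 0 (-0.004) with the other, and Cyp2u1, a cytochrome P450 that was called lower through a run probe, gave -0.81 ± 0.13 with that probe (adjusted p = 0.0495) and 0.006 with another. What these run probes bound on the arrays was not tested.

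**Figure D2:**
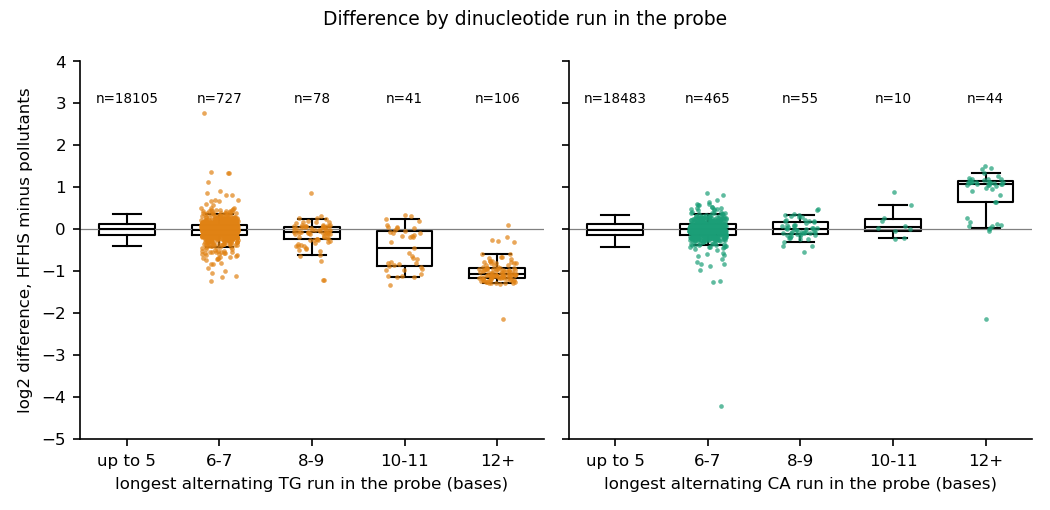
The log2 difference, HFHS minus pollutants, is plotted by the longest alternating TG run (left) or CA run (right) in the gene's probe, in bases. Boxes span the quartiles with the median as a line, whiskers run from the 5th to the 95th percentile, points are single genes (the shortest bin has the box alone), and n is the number of genes; differences drop as the TG run lengthens, to a median of -1.07, and climb with the CA run, to 1.08.

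With every probe holding a TG or CA run of 8 bases or more left out, 18811 genes were tested and limma called 0 in the paired fit, with a smallest adjusted p of 0.0524 and 3690 genes at an unadjusted p under 0.05. The same genes gave 97 higher and 128 lower without the block and 199 higher and 240 lower over 13 arrays without the block. Of the 138 genes called without a run, 68 higher and 70 lower, 100 passed in the first of these fits and 111 in the second, and all 138 kept their sign in both. All 138 also kept their sign, with 0 called, with the acinar covariate and without the 3 acinar-high arrays. With normexp background correction 17 of the 138 passed and 129 kept their sign, and with the mean of a gene's probes 5 passed. The naming rule took 21 of the 138, of which 16 passed without the block and 18 over 13 arrays once run probes were left out. For these 21 genes the adjusted p in the paired fit is 0.0472 where no other value is given, and a gene below is past the threshold only where it is said to be called or is 1 of the 21 in the plot of named genes.

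Of the 21, Mfsd2a, Lpin1, Pnpla2 and Slc22a5, each lower in HFHS, act on lipids or carnitine. Mfsd2a, a transporter of lysophosphatidylcholine, read 1.87, 3.03, 2.41, 2.60 and 2.81 on the HFHS arrays of slides 1 to 5 and 3.67, 3.88, 3.84, 3.59 and 4.67 on the pollutants arrays. All HFHS arrays lay below all pollutants arrays, and the ST vehicle arrays (2.53, 2.49 and 1.36) lay within or below the HFHS range. Mfsd2a was 2.62-fold lower in HFHS (-1.39 ± 0.17). Lpin1, a phosphatidate phosphatase of triglyceride synthesis that also acts as a coregulator in fasting, read -0.38, -0.09, -0.26, -0.32 and -0.13 in HFHS and 0.37, 1.26, 0.73, 1.50 and 1.25 under pollutants. Its 2 groups did not overlap, the ST vehicle arrays (0.48, 0.83 and 0.47) lay among the lower pollutants arrays, and the difference was -1.26 ± 0.15, 2.40-fold, with -0.88 at a second probe.

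Pnpla2, the triglyceride lipase of lipid droplets, read 2.46, 2.62, 2.61, 2.40 and 2.80 in HFHS and 3.19, 3.08, 3.15, 3.20 and 3.46 under pollutants, without overlap. It was 1.55-fold lower in HFHS (-0.64 ± 0.08). Slc22a5, the carnitine transporter, read -0.55, -0.66, -0.38, -0.82 and -0.12 in HFHS and 0.10, 0.10, 0.03, -0.07 and 0.63 under pollutants, a difference of -0.66 ± 0.08. With run probes left out its adjusted p was 0.0735 without the block and 0.0469 over 13 arrays. Slc22a5 read -0.72, -0.83 and -0.49 on the ST vehicle arrays, within or just below the HFHS range. The neighbouring and related carnitine transporter Slc22a21 was also called (-0.66 ± 0.08; -0.16 after normexp and -0.43 in the authors' deposited table), and signals of the 2 by these probes may not be independent.

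Of the 22 genes tested of triglyceride synthesis and lipid droplets, Lpin1 and Pnpla2 were the 2 called, both lower, and the list's median was -0.11, against -0.006 over all genes. Mogat1, an acyltransferase of triglyceride synthesis, had the largest positive difference (1.30 ± 0.29, adjusted p = 0.0852), higher in 4 of 5 pairs. Its HFHS arrays ranged from -2.84 to -0.21 and its pollutants arrays from -3.24 to -1.82, so the groups overlapped. Cidec, a droplet protein, was at -0.86 ± 0.21 (adjusted p = 0.0940), with -0.19 at a second probe and -0.52 after normexp. The fatty acid transporter Cd36 was at 0.57 ± 0.17 (adjusted p = 0.132), 1.67 to 1.95 in HFHS and 0.67 to 1.59 under pollutants, and the nuclear receptor Pparg at 0.14 ± 0.11 (0.539).

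The genes of PPARalpha and fatty acid oxidation had mostly small negative differences. Of 35 tested, 29 were negative with a median of -0.18, where 48.6% of all genes were positive, and Slc22a5 was the 1 called. The peroxisomal isomerase Eci2 (-0.35 ± 0.07, adjusted p = 0.0685), the lipase inhibitor Angptl4 (-0.66 ± 0.17, 0.109) and the carnitine palmitoyltransferase Cpt1a (-0.32 ± 0.10, 0.156) did not pass. The kinase Pdk4, which holds back glucose oxidation, was at -1.12 ± 0.49 (0.263) and the hormone Fgf21 at -0.75 ± 0.52 (0.464). The fatty acid hydroxylases Cyp4a10 and Cyp4a14 were at -0.18 ± 0.31 (0.771) and -0.33 ± 0.29 (0.555), each lower in 3 of 5 pairs. Some of these values depended on the scaling. After quantile normalization Eci2 was at -0.22, Cyp4a14 at -0.21 and Cyp4a10 at -0.03, while Angptl4 was at -0.60 and Pdk4 at -1.13. The 17 genes of fatty acid synthesis had a median of -0.14 and 0 called, with Srebf1, their regulator, at 0.71 ± 0.26 (0.195), Fasn at -0.14 ± 0.28 (0.804) and Scd1 at 0.24 ± 0.33 (0.721).

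Most genes of cholesterol synthesis had negative differences, and none of these passed. Of 20 genes tested, 17 had negative differences, the median was -0.57, and 14 had an unadjusted p under 0.05, against 20.3% of all genes. The mean of the list was 2.62, 2.25, 2.72, 1.65 and 2.13 on the HFHS arrays and 2.98, 3.05, 2.78, 2.51 and 2.60 on the pollutants arrays of slides 1 to 5, lower in HFHS within each slide but with overlap between the groups. The ST vehicle arrays were above both, at 3.61, 4.07 and 3.58. The largest difference was that of Sqle, the squalene epoxidase, which read 2.07, 1.00, 2.40, -1.02 and 0.53 in HFHS and 2.80, 3.17, 2.79, 2.38 and 2.89 under pollutants. Of the 3 HFHS arrays with acinar transcripts, those of slides 4 and 5 had the lowest Sqle values and that of slide 3 the highest, and the difference of -1.81 ± 0.44 had an adjusted p of 0.0971.

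Cyp51, the lanosterol demethylase, was at -1.08 ± 0.25 (adjusted p = 0.0896) and the isomerase Idi1 at -0.83 ± 0.22 (0.113). Tm7sf2, a sterol reductase, was at -0.70 ± 0.16 (0.0860) and passed once run probes were left out without the block (0.0492) and over 13 arrays (0.0243). Hmgcs1, the HMG-CoA synthase, was at -0.59 ± 0.19 (0.165). Without the 3 acinar-high HFHS arrays Cyp51 was at -0.72 and Hmgcs1 at -0.39, and the median of the list was -0.37. Its promoter holds the letters TCACNCCAC, the sterol response element of SREBP, 137 to 129 bases before the RefSeq start, shown here in capitals (GRCm38.p6, chr13:119690188-119690247, plus strand).
Hmgcs1 promoter: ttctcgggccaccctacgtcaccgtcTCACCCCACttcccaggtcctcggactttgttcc
On either strand, these letters were found in the 250 bases before 1.05% of 15304 starts of tested genes, and in 1 of the 15 genes of the cholesterol list with a promoter in the table.

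The 1 called gene of the cholesterol list went the other way. Acat2, the acetoacetyl-CoA thiolase at the head of the pathway, read 4.76, 4.84, 4.68, 4.61 and 4.66 in HFHS and 4.10, 3.80, 4.21, 3.75 and 3.45 under pollutants. The HFHS arrays were all above the pollutants arrays and close to the ST vehicle arrays (4.80, 4.93 and 4.84), and Acat2 was 1.80-fold higher in HFHS (0.85 ± 0.12). The neighbouring and similar gene Acat3 was also called higher (0.48 ± 0.07), and signal from 1 may reach the probe of the other. All 12 genes of sterol regulation and uptake had negative differences (median -0.29, 0 called), among them the retinol dehydrogenase Rdh11 at -0.52 ± 0.10 (adjusted p = 0.0603) and Srebf2, which encodes SREBP2, at -0.43 ± 0.16 (0.215). These 2 were at -0.21 and -0.16 without the 3 acinar-high arrays, and Srebf2 was at -0.07 after normexp and -0.19 at a second probe. The 10 LXR and sterol efflux genes had a median of 0.06 and 0 called.

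**Figure D3:**
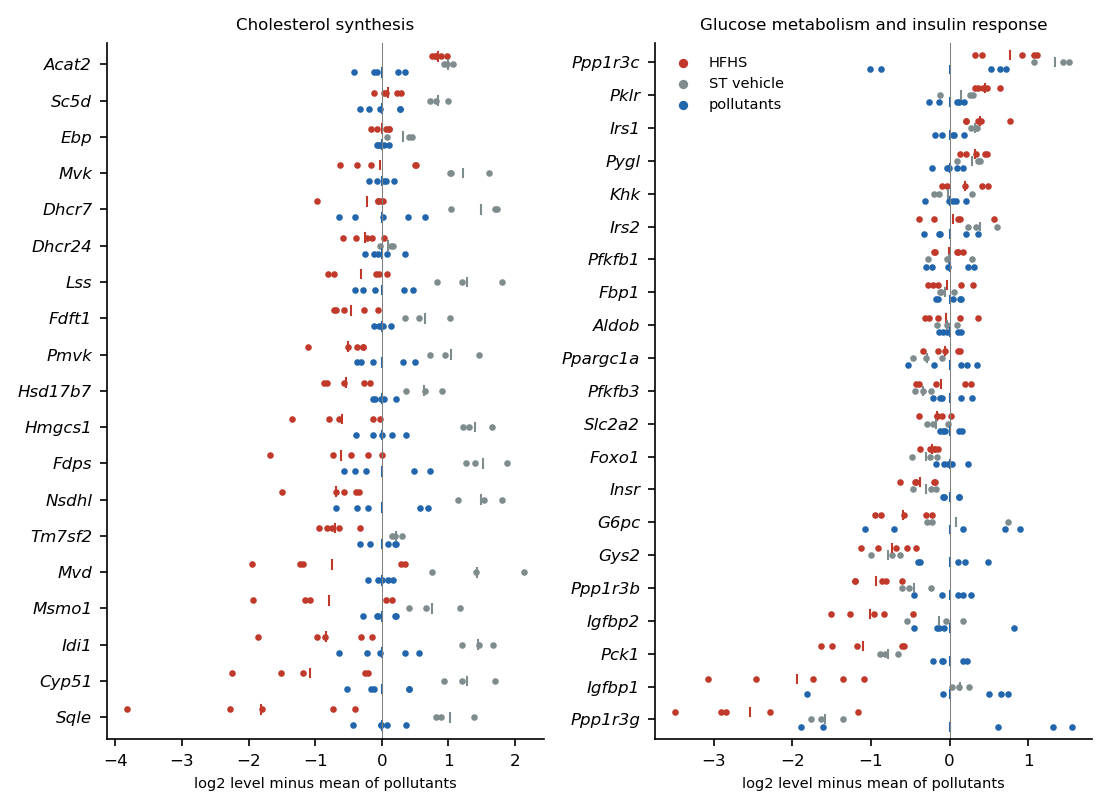
Each row is a gene of the cholesterol synthesis list (left) or of the glucose and insulin list (right), all but 1 of the genes tested in each, and each point an array, as the log2 level minus the mean of the 5 pollutants arrays; short lines are group means of 5 HFHS (red), 3 ST vehicle (grey) and 5 pollutants (blue) arrays. In the left panel Sqle and Cyp51 are furthest to the left in HFHS, and Acat2 is furthest to the right. In the right panel Ppp1r3g and Igfbp1 are furthest to the left.

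Sterol use in bile acid synthesis differed in a single called gene. Cyp39a1, which hydroxylates 24-hydroxycholesterol, read 2.08, 2.02, 2.15, 2.38 and 2.12 in HFHS and 3.44, 2.74, 3.27, 3.91 and 3.23 under pollutants, with the ST vehicle arrays at 3.17, 2.76 and 2.70. The HFHS arrays were below all others, and Cyp39a1 was 2.24-fold lower than under pollutants (-1.16 ± 0.12). Cyp7a1, the rate-limiting enzyme of the main pathway, read 3.08, 3.61, 3.46, 3.08 and 4.01 in HFHS and 2.18, 2.59, 2.82, 2.85 and 2.56 under pollutants, 0.85 ± 0.17 higher with no overlap (adjusted p = 0.0710). The ST vehicle arrays read 0.85, 1.32 and 2.23. Over the 16 bile acid genes the median was 0.10, with 11 positive differences.

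None of the 22 genes of the glucose and insulin list passed in the paired fit, and the larger differences were negative and in genes that insulin holds down. Pck1, the enzyme that opens glucose synthesis, read 5.71, 6.17, 5.85, 6.76 and 6.74 in HFHS and 7.52, 7.25, 7.13, 7.26 and 7.57 under pollutants, with the ST vehicle arrays at 6.70, 6.52 and 6.46. The groups did not overlap, the difference was -1.10 ± 0.18, and its adjusted p of 0.0501 was just above the threshold. Pck1 passed once run probes were left out without the block (0.0444) and over 13 arrays (0.0199). Its promoter holds the letters TTACGTCA, the cAMP response element known from this gene, 93 to 86 bases before the start (GRCm38.p6, chr2:173152954-173153013, plus strand).
Pck1 promoter: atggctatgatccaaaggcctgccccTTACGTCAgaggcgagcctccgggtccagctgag
The same letters stand before 0.601% of the 15304 starts.

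Igfbp1, an insulin-repressed binding protein, read 2.38, 1.77, 3.10, 3.48 and 3.75 in HFHS and 5.34, 5.58, 3.03, 4.75 and 5.50 under pollutants, and the groups overlapped through the pollutants array of slide 3 (-1.94 ± 0.53, adjusted p = 0.118). Ppp1r3g, a glycogen-targeting subunit of protein phosphatase, had the largest difference of the list (-2.54 ± 0.70, 0.119), Igfbp2 was at -1.01 ± 0.23 (0.0887) and the insulin receptor Insr at -0.37 ± 0.07 (0.0565). The pyruvate kinase Pklr was at 0.45 ± 0.12 (0.114). G6pc, the last step of glucose release, was at -0.59 ± 0.30 (0.332). Of the 22 genes, 5 had all HFHS arrays below all pollutants arrays (4.28% of all genes) and 2 all above (2.80% of all genes), and 1 of the former, Ppp1r3b (-0.94 ± 0.17, adjusted p = 0.0578), was read by a probe with a TG run.

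A single gene of the clock was called. Per1, a repressor of the clock that cAMP and glucocorticoids induce, read 1.23, 1.48, 1.88, 1.22 and 2.41 in HFHS and 2.20, 2.87, 2.63, 2.54 and 3.08 under pollutants, and the ST vehicle arrays 1.29, 1.40 and 0.88. The groups overlapped through the HFHS array of slide 5, which was below its own slide's pollutants array, and Per1 was 2.02-fold lower (-1.02 ± 0.13). A second Per1 probe gave -0.07, and with run probes left out the adjusted p was 0.0752 without the block and 0.0475 over 13 arrays. Per1 has 2 starts in the RefSeq table, and 1 of them has an E-box, CACGTG, the letters that the clock activators bind, 166 to 161 bases before it (GRCm38.p6, chr11:69098757-69098816, plus strand).
Per1 promoter: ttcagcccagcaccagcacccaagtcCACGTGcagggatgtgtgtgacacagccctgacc
An E-box stands before 7.55% of the starts of tested genes.

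Sik1, a kinase induced by cAMP that acts back on CREB coactivators, read -2.20, -2.40, -1.98, -2.41 and -1.54 in HFHS and -0.66, -0.72, -1.42, -1.14 and -0.10 under pollutants. The groups did not overlap, the ST vehicle arrays (-2.08, -1.92 and -2.29) lay with the HFHS arrays, and Sik1 was 2.46-fold lower in HFHS (-1.30 ± 0.16; -0.82 after normexp). Usp2, a ubiquitin protease under clock control, was at -0.84 ± 0.15 (adjusted p = 0.0565), Ciart, a clock repressor, at -1.01 ± 0.27 (0.115), Per2 at -0.23 ± 0.08 (0.169), the activator Arntl at 0.53 ± 0.17 (0.159) and Dbp at -0.05 ± 0.10 (0.817). Means in HFHS, pollutants and ST vehicle were 1.475, 2.317 and -0.382 for Usp2. They were -1.744, -1.516 and -3.371 for Per2, and -3.178, -3.705 and -1.58 for Arntl. In each of these genes both groups lay on the same side of the ST vehicle arrays. Of the 16 clock genes, Per1 was the 1 called and the median was -0.12. Among 14 clock-controlled and glucocorticoid-responsive genes, 12 had negative differences (median -0.42, 0 called), among them Usp2, the transcription factor Zbtb16 (-1.64 ± 0.35, 0.0802) and the glucocorticoid receptor partner Fkbp5 (-0.60 ± 0.13, 0.0827). Time of day at collection is not given in the sources used here, and its part in these values was not tested.

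Of the lists of CAR and PXR targets and AhR targets, 1 gene was called. Ces2a, a carboxylesterase, read 4.98, 5.05, 5.15, 5.43 and 5.16 in HFHS and 5.74, 5.87, 6.02, 6.04 and 5.72 under pollutants. The HFHS arrays were below all pollutants arrays, the ST vehicle arrays (5.82, 6.10 and 5.74) lay beside the latter, and Ces2a was 1.65-fold lower in HFHS (-0.72 ± 0.07). The carboxylesterases are a family of similar genes, and a probe can read more than 1. Of the 27 CAR and PXR targets, 18 had negative differences with a median of -0.22. The P450 reductase Por was at -0.41 ± 0.08 (adjusted p = 0.0613), the heme enzyme Alas1 at -0.40 ± 0.13 (0.173), the CAR target Cyp2b10 at 0.23 ± 0.10 (0.283) and the PXR target Cyp3a11 at -0.04 ± 0.12 (0.863). These values depended in part on the scaling. With quantile normalization Por was at -0.32, Alas1 at -0.27, Cyp2b10 at 0.34 and Cyp3a11 at 0.082. Alas1 had means of 7.005 in HFHS, 7.405 under pollutants and 5.529 in ST vehicle, so both groups lay above ST vehicle. Of the 6 AhR targets tested, Cyp1a2 had the largest difference (-0.52 ± 0.11, 0.0856) and the median was -0.01, while Cyp1a1 was too dim to be tested. Cyp1a2 had means of 2.673 in HFHS, 3.189 under pollutants and 3.54 in ST vehicle, so both groups had means below ST vehicle, HFHS further.

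The largest positive differences were in genes of diverse roles. A1bg, a plasma glycoprotein made mainly by female mouse liver, read 3.02, 1.72, 1.85, 1.57 and 2.67 in HFHS and 0.85, 0.03, -0.57, -2.79 and -0.65 under pollutants. All HFHS arrays were above all pollutants arrays, and A1bg was 6.94-fold higher (2.79 ± 0.38). The ST vehicle arrays spread from 0.29 to 3.95, and its adjusted p with run probes left out was 0.0573 without the block and 0.0639 over 13 arrays. Another female-biased gene, the oxidase Hao2, was at 1.71 ± 0.30 (adjusted p = 0.0536). Of 15 female-biased genes A1bg was the 1 called, with a median of -0.24, and the 15 male-biased genes had a median of -0.12 with 1 called, Cyp2u1 through its run probe.

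Sema5b, a transmembrane semaphorin, read -0.47, -0.32, -1.65, -1.15 and -0.49 in HFHS and -2.28, -2.75, -2.61, -3.55 and -2.94 under pollutants. The groups did not overlap and the ST vehicle arrays lay at the lower end of the pollutants arrays or beneath them (-3.88, -3.60 and -3.31). Sema5b was 4.03-fold higher in HFHS than under pollutants (2.01 ± 0.23), with 1.95 and 0.38 at other probes. Leap2, a liver peptide that blocks the ghrelin receptor, read 4.22, 4.05, 4.05, 3.99 and 4.14 in HFHS and 2.65, 2.58, 3.25, 3.25 and 2.80 under pollutants, again without overlap, with ST vehicle between at 3.63, 3.78 and 3.52. It was 2.27-fold higher in HFHS (1.19 ± 0.15), and its adjusted p over 13 arrays with run probes left out was 0.00488.

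Serpinb1a, an inhibitor of neutrophil proteases that the liver also secretes, was 2.26-fold higher (1.18 ± 0.17), at 1.78 to 2.52 in HFHS and 0.64 to 1.29 under pollutants. Tpm2, a tropomyosin, was at 0.94 to 1.50 and -0.02 to 0.58 (0.98 ± 0.13, second probe 1.05), and the myelin protein Ncmap at -0.06 to 1.17 and -1.0 to -0.44 (1.17 ± 0.19, adjusted p = 0.0488, second probe 1.15). Grin3b, a glutamate receptor subunit, was at -2.06 to -1.21 and -4.01 to -2.53 (1.71 ± 0.27, adjusted p = 0.0479; 0.96 in the authors' deposited table). In these 4 genes all HFHS arrays were above all pollutants arrays. The ST vehicle means of Serpinb1a and Ncmap were 1.973 and 0.566, beside HFHS means of 2.135 and 0.484. The ST vehicle arrays of Serpinb1a spread from 1.296 to 2.315. For Tpm2 and Grin3b the ST vehicle means were 0.048 and -3.038, beside pollutants means of 0.286 and -3.351. Flacc1 (2.29 ± 0.36, adjusted p = 0.0487) and Mansc4 (1.25 ± 0.16) were dim, each well above background on all 5 HFHS arrays and 2 of the 5 pollutants arrays. They passed the filter through the group where they are high, and the size of their differences is uncertain (Flacc1 1.49 after normexp, Mansc4 0.40 in the authors' deposited table). Flacc1 overlapped between the groups through the HFHS array at -5.69 and did not pass over 13 arrays with run probes left out (0.0869).

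The remaining named genes were lower in HFHS than under pollutants. Cib3, a calcium-binding protein, read -3.43, -3.11, -3.07, -2.50 and -2.68 in HFHS and -1.50, -0.95, -1.41, -1.61 and -1.65 under pollutants, 2.89-fold lower without overlap (-1.53 ± 0.20; -0.81 after normexp and -0.97 in the authors' deposited table). Mthfd1l, a mitochondrial enzyme of folate metabolism, was at -3.16 to -2.43 in HFHS and -2.18 to -1.63 under pollutants (-0.95 ± 0.13, second probe -1.07; -0.34 after normexp and -0.58 in the authors' deposited table), and was the 1 called of 14 folate and methionine genes. Its ST vehicle arrays (-3.235, -3.397 and -3.588) lay below all HFHS arrays, and so further from the pollutants arrays. Bmp6, the signal that raises the iron hormone hepcidin, was at -2.73 to -2.25 and -2.25 to -1.75 (-0.52 ± 0.08; -0.15 after normexp), the groups meeting at -2.25, and did not pass with run probes left out (0.0797 without the block, 0.0963 over 13 arrays). Hamp, which encodes hepcidin, was at 0.59 ± 0.55 (0.589), and the BMP target Id1 at -0.51 ± 0.20 (0.228), within a list of 18 genes with a median of -0.002. In the same list Smad9 was at -1.53 ± 0.35 (0.0882) and Tmprss6 at 0.31 ± 0.07 (0.0814). Means in HFHS, pollutants and ST vehicle were 4.917, 4.329 and 6.286 for Hamp and -0.249, 0.266 and 1.647 for Id1, so both groups lay below ST vehicle.

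**Figure D4:**
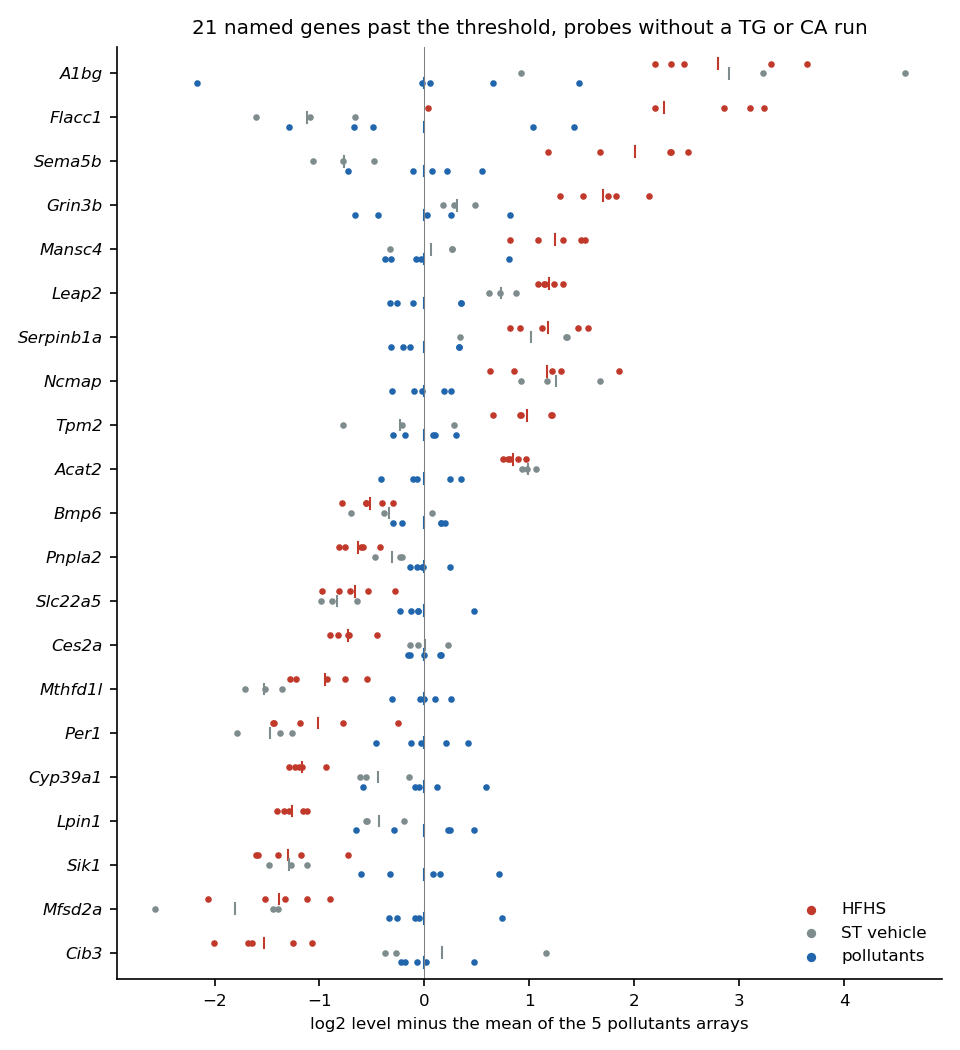
Each row is 1 of the 21 named genes called without a TG or CA run in the probe, and each point an array, as the log2 level minus the mean of the 5 pollutants arrays; short lines are group means of 5 HFHS (red), 3 ST vehicle (grey) and 5 pollutants (blue) arrays. The HFHS points lie to the right in 10 genes and to the left in 11, and the ST vehicle points lie with HFHS in genes such as Sik1 and with pollutants in genes such as Ces2a. Flacc1 and Mansc4 were dim on most pollutants arrays.

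Interferon genes leaned the other way. Of 23 tested, 21 had positive differences, with a median of 0.22 and 0 called. The largest were those of the ubiquitin-like protein Isg15 (0.62 ± 0.14, adjusted p = 0.0908, second probe 0.56), Ifit1 (0.54 ± 0.19, 0.188) and the immunoproteasome subunit Psmb9 (0.54 ± 0.12, 0.0887, second probe 0.51). The mean of the list was 1.22, 1.03, 1.11, 0.93 and 0.85 on the HFHS arrays and 0.96, 0.78, 1.01, 0.25 and 0.88 on the pollutants arrays, which overlapped. The ST vehicle arrays were at 0.80, 0.77 and 1.17. Markers of macrophages, T cells, B cells and neutrophils had medians of 0.001, -0.12, 0.15 and 0.03, each with 0 called. Itgam, of the macrophage markers, was at 1.07 ± 0.19 (adjusted p = 0.0533).

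The other lists held no called gene. Their medians were 0.15 for 16 extracellular matrix genes, 0.14 for 20 cell cycle genes (14 positive), 0.06 for 18 genes of oxidative phosphorylation, 0.04 for 17 NRF2 and antioxidant genes and 0.03 for 16 hormone receptor genes, among them the estrogen receptor Esr1 at -0.09 ± 0.19 (adjusted p = 0.810) and the estrogen sulfotransferase Sult1e1 at 0.30 ± 0.40 (0.705). On the negative side they were -0.06 for 19 urea cycle and amino acid genes, -0.08 for 12 fatty acid uptake genes, -0.09 for 18 ER stress genes, -0.10 for 22 acute phase genes and -0.12 for 16 apolipoprotein genes. Single members came close to the threshold, among them Fabp2 of the uptake genes (0.90 ± 0.15, adjusted p = 0.0501). Prlr of the hormone receptor genes was at 0.56 ± 0.10 (0.05785). Pericentral and periportal markers had medians of -0.10 and -0.04, and those of endothelial cells, stellate cells, bile duct cells, adipocytes and erythroid cells -0.05, -0.08, -0.26, -0.30 and -0.12.

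**Figure D5:**
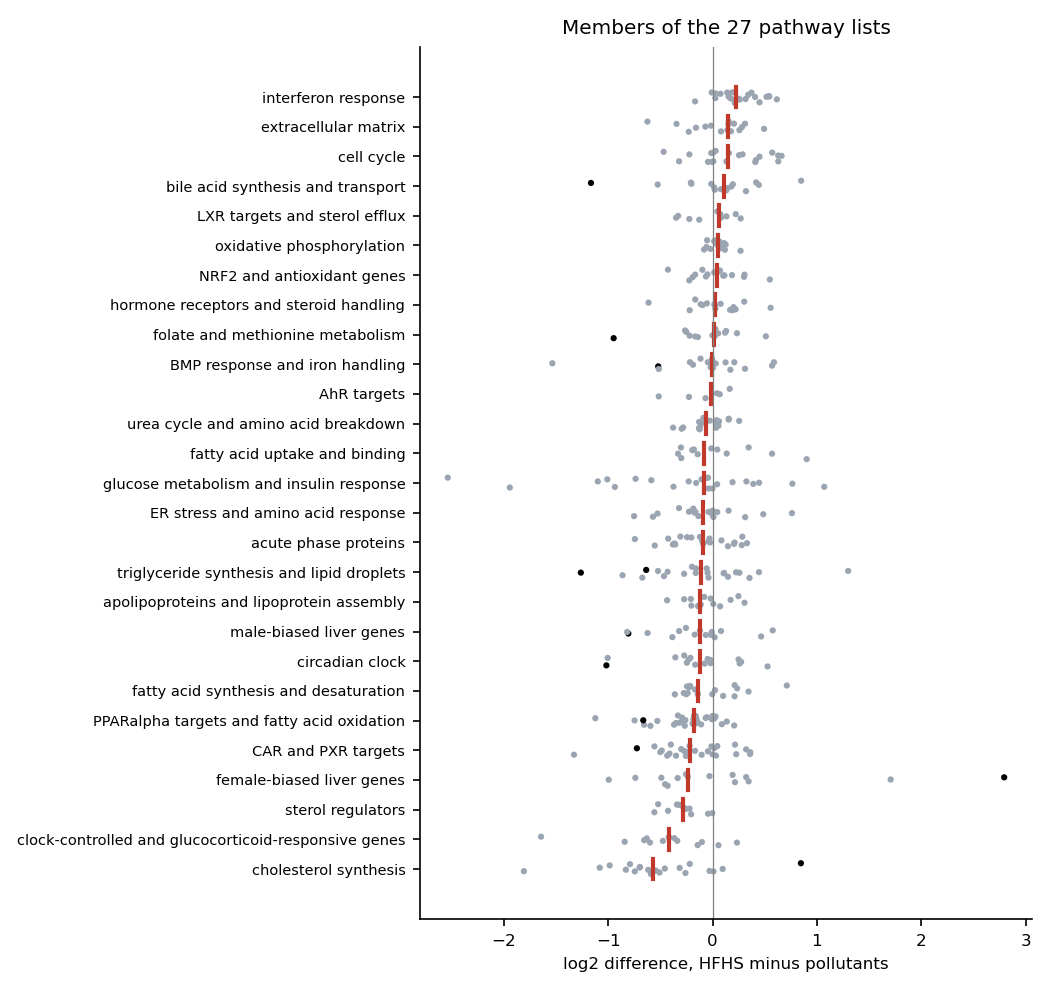
Each row is a pathway list and each point a member tested, at its log2 difference, HFHS minus pollutants; black points were called and red lines are medians. Cholesterol synthesis has the lowest median, -0.57, and the interferon response the highest, 0.22, and most lists hold no black point.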

How the data were processed

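Per the file headers, the arrays are 1-colour Agilent arrays read with Feature Extraction 11.5.1.1, and the deposited gProcessedSignal is a background-subtracted intensity, not normalized between arrays. Probe positions in the files are on mm9. The authors' deposited table of 26082 probes holds log2 values normalized between arrays by a method not given in the sources used here. It was used as an alternative.

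Here each array's log2 intensity was taken relative to its 75th percentile over 39429 non-control probes. Of these, 24406 were kept because all arrays of 1 or both groups read them well above background, and the probe of highest mean stood for a gene. The difference, HFHS minus pollutants, was fitted with limma 3.58.1 (R 4.3.3; lmFit, eBayes) over 10 arrays with slide as a fixed block, two-sided, with Benjamini-Hochberg adjustment over 19057 genes, and called at an adjusted p under 0.05. Outlier spots were set missing, which left 85 values missing among the genes tested. Gene symbols came from RefSeq accessions (28340 probes) or symbols (3193, and 272 by an older symbol), and 7624 probes had no match in the RefSeq table. Promoter sequences are RefSeq's (GRCm38.p6), searched on both strands.

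Named genes are the 10 called genes with a symbol of largest difference in each direction, up to 3 called genes of each list, and a short list of liver genes. Members and lists were chosen with earlier results of these data known. The replicate number equals the slide, which the rule for the comparison uses as the pairing. Same-slide arrays deviated together at correlations of 0.47, -0.01, 0.19, 0.51 and 0.13, and 6 of 10 arrays correlated best with their own slide. The fit was tested on simulated data. Alternatives of block, arrays, scaling, background, filter and probe choice were run, and leaving out repeat-run probes was added after seeing the data. A few genes of the lists are counted with their list and not reported singly here.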

Additional observations from a re-analysis of the deposited data

Results flagged for a closer look

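In 14 of 204 groups of 5 arrays tested, 1 array stood apart from the other 4 by Dixon's criterion, which chance meets in about 1 group in 20. Among called genes, Slc22a5 read 0.63 on pollutants array 5 (the others -0.07 to 0.10), Mfsd2a 4.67 on the same array (3.59 to 3.88) and Mansc4 -3.84 on pollutants array 2 (-5.02 to -4.68). Pign, read by its CA-run probe, was at -2.33 on pollutants array 3 (-3.30 to -3.04). On pollutants array 1, Por was at 6.22 (5.84 to 5.94), Per2 at -1.81 (-1.49 to -1.40), Id1 at 0.99 (-0.05 to 0.22) and the mean of the acute phase genes at 5.02 (3.99 to 4.28). Mogat1 was at -1.82 (-3.24 to -2.83) and the erythroid mean at 2.44 (1.98 to 2.11) on pollutants array 2. Scd1 was at 4.22 (4.93 to 5.22) and the T cell mean at -0.68 (-1.05 to -0.95) on pollutants array 5. The mean of the hormone receptor genes was 1.61 on pollutants array 3 (1.91 to 1.99), and Esr1 was at -0.96 on HFHS array 3 (-1.32 to -1.28).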

How the results depend on the processing

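Against 70 genes higher and 173 lower, limma called 219 and 334 with no replicate block, 316 and 518 over 13 arrays with it, 314 and 475 over 13 arrays without it, 221 and 446 with trended robust eBayes, and 191 and 317 on the authors' deposited table. It called 13 higher and 122 lower after normexp (17 of the 138 run-free calls among them), 123 and 252 among probes above background on all 10 arrays, and 2 and 5 with the mean of a gene's probes. It called 0 with median scaling (3569 at an unadjusted p under 0.05), with no filter (3617), with the acinar mean as a covariate (2901), without the HFHS arrays of slides 3 to 5 (2991), and without replicate 1 to 5 in turn, lowest and highest 0 (3092 to 3317). Without run probes it called 0 (3690; 2930 to 3156 leaving out each replicate), but 199 and 240 over 13 arrays without the block and 168 and 223 with it. No scaling moved the median of all genes by over 0.1.

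Of the gene values under alternatives, 2317 kept direction and side of the threshold, 809 lost the call, 86 gained it and 54 changed sign. Without run probes Igsf9 was at 0.173 (0.09 to 0.385 leaving out each replicate), Pign at -0.218 (-0.325 to -0.116), Cyp2u1 at 0.006 (-0.009 to 0.02, above 0 at 0.02, 0.007 and 0.015 without replicates 1, 2 and 3) and Sema6d at 0.06 to 0.114 without replicates 2 or 3, while with their run probes they ranged from -1.418 to -1.136, 1.298 to 1.655, -0.919 to -0.715 and -1.414 to -1.154. With the acinar covariate Cyp4a14 was at 0.379, Cyp4a10 at 0.54, Scd1 at -0.281 and Cyp3a11 at 0.088, and Scd1 was at -0.021 without the acinar arrays. Leaving out 1 replicate, Sult1e1 ranged from -0.149 to 0.637, Scd1 from -0.087 to 0.529, Cyp4a10 from -0.395 to 0.061, Fasn from -0.315 to 0.13, Esr1 from -0.234 to 0.11, Dbp from -0.121 to 0.033 and Cyp3a11 from -0.1 to 0.084. Quantile normalization gave Dbp 0.023 and Cyp3a11 0.082, and the values deposited by the authors gave 0.024 and 0.062. The mean of probes gave Dbp 0.013 and normexp gave Esr1 0.038. The cause was not tested.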

Other observations

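Several genes outside the named set, chosen here after their values were seen, had small errors beside their differences (adjusted p = 0.0472, limma). Slc37a4, the transporter that brings glucose 6-phosphate to its phosphatase, read 4.62, 4.67, 4.76, 4.94 and 4.94 on the HFHS arrays of slides 1 to 5 and 5.39, 5.42, 5.30, 5.42 and 5.45 on the pollutants arrays (-0.61 ± 0.08), with ST vehicle at 4.65, 4.92 and 4.52. Aldoc, an aldolase of glycolysis, was at 1.25 to 2.12 and 2.22 to 2.83 (-0.80 ± 0.09), and Galnt15, a glycosyltransferase, at -2.60 to -2.17 and -1.70 to -1.18 (-0.98 ± 0.07; -0.45 after normexp and -0.63 in the authors' deposited table). Aldoc was at -0.53 without the 3 acinar-high HFHS arrays. Higher in HFHS were the carbonic anhydrase Car14 (0.82 ± 0.07), the arachidonic acid epoxygenase Cyp2j5 (0.73 ± 0.08), the steroid dehydrogenase Hsd3b3 (0.90 ± 0.12) and the glutathione transferase Gstp3 (0.76 ± 0.09). In these 7 genes the groups did not overlap, as in 216 of the 243 genes called. Of all genes, 2.80% lay wholly above and 4.28% wholly below. Hsd3b3, Cyp2j5 and Gstp3 belong to families of similar genes.

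Of 15 host genes of small nucleolar RNAs tested, a set also chosen after values were seen, 7 were called lower and 0 higher, with a median of -0.58, where 0.908% of all genes were called lower. Of the 7, Taf1d is read by a probe with a CA run of 8 bases, and Gas5 (-0.58 ± 0.06) gave -0.21 and -0.12 at other probes. Snhg5 read -4.18, -4.03, -3.87, -4.32 and -3.83 in HFHS and -2.63, -3.00, -2.49, -2.88 and -3.03 under pollutants, with ST vehicle between at -3.45, -3.43 and -3.62. Its difference was -1.24 ± 0.12, but -0.18 after normexp and -0.55 in the authors' deposited table. Zfas1 was at 1.58 to 2.10 and 2.60 to 2.85 (-0.93 ± 0.08), with ST vehicle at 1.79 to 1.97.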
